A study of Mus musculus with 9 samples.

Results

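The DNA methyltransferase family was followed at the RNA level in mouse LSK cells (Lin-, Sca1+, cKit+), a sorted bone marrow population rich in blood stem cells and early progenitors. Its 5 members were the rows of the deposited count table whose Ensembl identifiers carry the symbols Dnmt1, Dnmt3a, Dnmt3b, Dnmt3l and Uhrf1, out of 39179 gene rows. All 5 passed the filter on low counts that left 18576 genes for testing. The samples were RNA-seq libraries from C57BL/6 animals aged 6 months, each treated with 5 injections of poly(I:C), which mimics viral RNA and so induces the interferon-driven Mx1-Cre recombinase where it is carried. Wild-type animals (labelled wt_Mx+, Dnmt3a+/+, carrying Mx1-Cre) gave 3 libraries, while 4 came from mice that carried Mx1-Cre together with a conditional mutant allele in the Dnmt3a gene itself (cKI_Mx+, Dnmt3a+/m). Animals with the conditional allele and no Cre (cKI_Cre-) gave 2, and the design text lists these as Dnmt3a+/-. The Cre-negative group therefore differs from wild type both in the Dnmt3a allele and in the lack of Cre. Mx1-Cre is known to act in interferon-responsive cells of many tissues, and recombination was not measured here.

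DNA methylation at CpG sites is copied and created by different enzymes. Dnmt1 restores methylation on the new strand after replication, and Uhrf1 recognises the half-methylated sites and brings Dnmt1 to them. Dnmt3a and Dnmt3b place methyl groups on unmethylated DNA, and Dnmt3l is a relative without enzyme activity that stimulates both, mainly in germ cells. In blood stem cells Dnmt3a is known for restraining self-renewal and permitting differentiation, and DNMT3A is among the genes most often mutated in acute myeloid leukaemia.

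Counts assigned to genes ranged from 47792306 to 58405879 per library. The 8 LSK markers listed (among them Kit and Ly6a, which encode the sorted antigens) were detected in every library. Their summed level was lowest in cre_negative_819, at 1891 CPM against 2299.7 to 2882 in the other 8 libraries. The same library held 2319 CPM over 10 erythroid markers, against 248 to 429 in the others, and Car1, which encodes a carbonic anhydrase of the red lineage, accounted for 1442 of these CPM. Each library name joins its group to the number its title carries, and CPM are reads of a gene scaled to a common library size after TMM normalization. The 8 neutrophil markers summed to 687 to 1152 CPM in wild type and to 1180 to 1541 in the mutant, with 986 and 1711 in Cre-negative libraries, and 8 B cell markers to 35.2 to 49.1, 46.7 to 65.0, and 37.0 and 63.0 CPM. Their part in the results below was not tested. Mpo alone made up 624 to 1280 CPM of the neutrophil sums. Transcripts of the Y chromosome were present in 5 libraries, at least 1 in each group. The labels do not say how many animals each library holds, so the p-values measure the spread between these libraries.

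The promoters are shown first. In the results below, Dnmt1 and Uhrf1 moved together across the libraries and Dnmt3a did not move with them. Whether promoter motifs have a part in this was not tested, and binding was not measured. RefSeq starts on GRCm38.p6 were found for all 5 members, 12 starts in all. In the 250 bases before each start, both strands were searched for the E2F motif, the site of the factors that switch on replication genes, spelled as TTTCCCGC, TTTCGCGC, TTTGCCGC or TTTGGCGC. Of 32817 such windows in the genome, 1.86% held a match. This share covers windows of any CpG content and was not matched to that of the member windows. Among the 12 member windows, 1 of the 3 of Dnmt1 and 1 of the 2 of Uhrf1 held TTTCGCGC, read on the opposite strand in Dnmt1. No match was found in the windows of Dnmt3a, Dnmt3b or Dnmt3l, which says only that these letters are not there. The 30 bases around each match are given 5′ to 3′ on the strand of the gene, with the match in capitals. The Dnmt1 stretch is chr9:20952824-20952853, and its match at chr9:20952835-20952842 lies 211 bases before a RefSeq start and within an exon annotated for a longer Dnmt1 transcript. The Uhrf1 stretch is chr17:56304117-56304146, and its match at chr17:56304128-56304135 lies 177 bases before its start and outside annotated Uhrf1 exons.
Dnmt1 (minus strand): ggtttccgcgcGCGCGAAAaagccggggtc
Uhrf1 (plus strand): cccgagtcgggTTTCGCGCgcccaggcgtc

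The first upstream windows of the de novo enzymes are shown beside them as windows with no such match. The Dnmt3a window at chr12:3806730-3806979 (plus strand) held 38 CpG sites and 82.4% G and C, more CpG sites than or as many as 98.4% of all windows. The Dnmt3b window at chr2:153649199-153649448 (plus strand) held 21, at the 85.2 percentile, where the median of all windows was 6. The windows with an E2F match lay between these, with 26 CpG sites in Dnmt1 and 30 in Uhrf1, and the other Dnmt3a windows held 40 and 15. Neither held CCAAT, the box found in 33.8% of windows, on either strand. The windows with an E2F match held CCAAT 3 times in Dnmt1 and 2 times in Uhrf1, counted on both strands.
Dnmt3a (plus strand): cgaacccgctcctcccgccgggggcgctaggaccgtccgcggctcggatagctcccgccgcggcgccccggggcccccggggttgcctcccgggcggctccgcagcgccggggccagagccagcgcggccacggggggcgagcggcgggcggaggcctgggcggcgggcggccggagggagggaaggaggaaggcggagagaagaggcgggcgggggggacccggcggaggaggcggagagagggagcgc
Dnmt3b (plus strand): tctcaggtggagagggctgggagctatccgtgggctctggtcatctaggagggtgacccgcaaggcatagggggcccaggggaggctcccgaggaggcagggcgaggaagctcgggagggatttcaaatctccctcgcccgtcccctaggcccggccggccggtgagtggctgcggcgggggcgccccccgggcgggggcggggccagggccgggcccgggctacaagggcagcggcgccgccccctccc

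The maintenance genes were the most abundant members. Per kilobase of exon, Dnmt1 averaged 100.3 CPM over the 9 libraries (range 76.6 to 136) and Uhrf1 63.7 (46.4 to 83.8). Dnmt3b followed at 22.3 (18.1 to 26.8), then Dnmt3a at 8.89 (5.62 to 10.4) and Dnmt3l at 0.112 (0.0493 to 0.143). The ranges of Dnmt1 and Uhrf1 overlapped between libraries, but within each library Dnmt1 was the higher of the pair, and the ranges of the other members did not overlap with their neighbours'. On this scale the mean of Dnmt1 stood at the 98.3 percentile of tested genes, Uhrf1 at 96.6, Dnmt3b at 86.3, Dnmt3a at 67.3 and Dnmt3l at 6.67. The place of Dnmt3a rests on its exon length, which was 16.64 kb when all annotated exons were joined and 9.68 kb for its longest coding transcript. Of the reads of Dnmt1, Dnmt3a and Dnmt3b per kilobase, Dnmt1 made up 75.3% ± 4.16 (SD, n = 3) in wild type, Dnmt3b 17.6% ± 1.91 and Dnmt3a 7.11% ± 2.30.

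**Figure D1:**
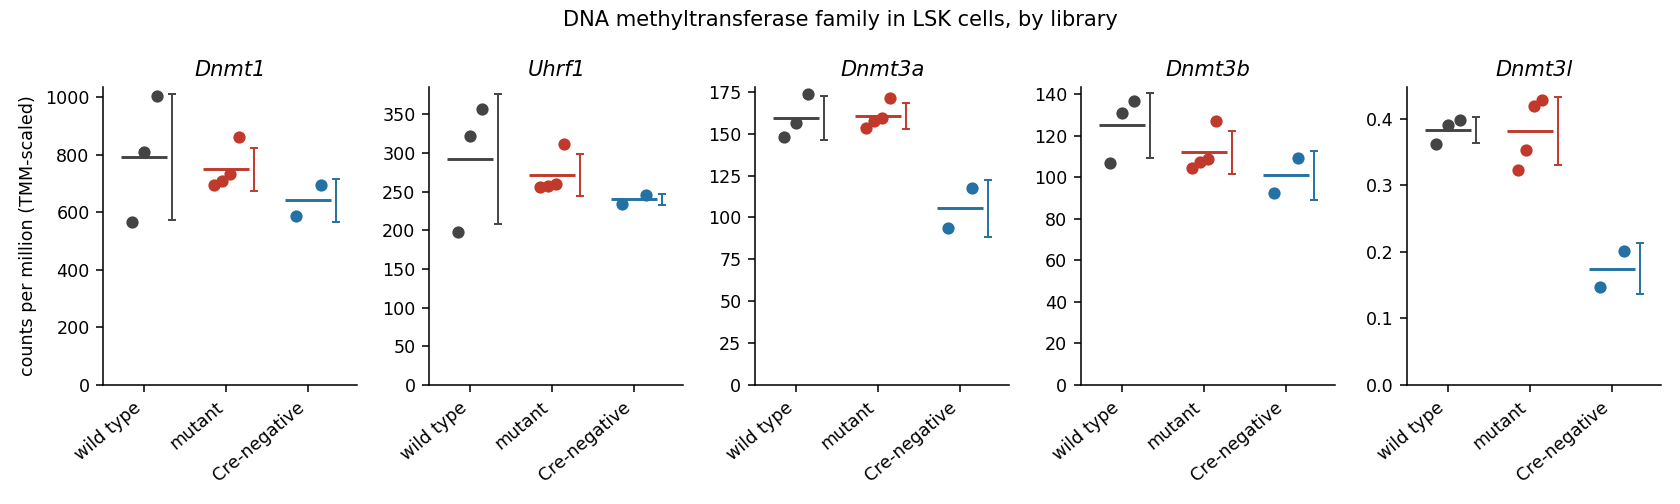
Level of each member in CPM (y axis from 0), with 1 point per library, a line at the group mean and a bar of 1 SD beside it, for 3 wild-type, 4 mutant and 2 Cre-negative libraries. The 2 Cre-negative libraries lie below the other 7 for Dnmt3a and Dnmt3l, while Dnmt1 and Uhrf1 spread most among the wild-type libraries.

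Dnmt1 (ENSMUSG00000004099, chr9:20907209-20959888 on the minus strand of GRCm38) stood at 565, 809 and 1004 CPM in the 3 wild-type libraries. Mutant libraries held 695, 708, 735 and 861 CPM, and Cre-negative libraries 589 and 695. The wild-type libraries thus included both the lowest and the highest value, and the groups overlapped. Relative to wild type, the log2 fold change was -0.08 in the mutant (SE 0.18) and -0.30 in Cre-negative libraries (SE 0.22), with an adjusted p in edgeR's quasi-likelihood test of 0.998 and 0.9998. Mutant minus Cre-negative gave 0.22 (SE 0.20, adjusted p = 0.953 in edgeR).

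Uhrf1 (ENSMUSG00000001228, chr17:56303321-56323486, plus strand) stood at 197, 322 and 357 CPM in wild type, in the same order of libraries as Dnmt1. The mutant libraries held 256, 258, 260.3 and 312 CPM and the Cre-negative libraries 235 and 245. The Cre-negative values lay below all mutant values, but inside the wild-type range. Log2 fold changes were -0.11 (SE 0.18) for mutant and -0.28 (SE 0.21) for Cre-negative against wild type, and 0.18 (SE 0.20) for mutant against Cre-negative, and the adjusted p in edgeR was 0.961 or above for each. The coefficient of variation was 28.7% among wild-type libraries for Uhrf1 and 27.7% for Dnmt1, and 9.95% and 10.1% among mutant libraries.

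The level of Dnmt1 and that of Uhrf1 rose and fell together from library to library. On the log2 CPM scale over the 9 libraries Pearson's r was 0.961 (exact permutation p = 5.51e-05, adjusted p = 0.000331 over 6 pairs of members) and Spearman's rho 0.967 (exact permutation p = 0.000165). Without the 2 libraries farthest from the median, r was 0.910 (exact permutation p = 0.00397). Within groups, after each group mean was taken off, r was 0.959 (exact permutation p = 0.00347, the smallest that 288 orders within groups can give). The Dnmt1 to Uhrf1 ratio per kilobase stayed between 1.45 and 1.65 in all libraries, a narrow range beside the 1.78-fold and 1.81-fold ranges of the genes themselves. Uhrf1 also went with Dnmt3b (r = 0.795, exact permutation p = 0.00834, adjusted p = 0.0250; rho = 0.650, p = 0.0666), where the rank correlation did not pass at 0.05. Without the 2 farthest libraries r was 0.857 (exact permutation p = 0.0181). Within groups r was 0.811, which did not pass (exact permutation p = 0.0625). The other 4 pairs had an adjusted exact permutation p from 0.0553 to 0.770.

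Both maintenance genes also moved with genes of S phase, the phase in which DNA is copied. The mean log2 CPM of 38 S phase genes ranged from 6.39 to 7.11 over the 9 libraries. Against it, Dnmt1 had r = 0.885 (exact permutation p = 0.00171, adjusted p = 0.00685 over 4 members) and rho = 0.817 (p = 0.0108), and Uhrf1 r = 0.820 (exact permutation p = 0.00776, adjusted p = 0.0155) and rho = 0.750 (p = 0.0255). Within groups r was 0.948 for Dnmt1 and 0.847 for Uhrf1 (exact permutation p = 0.00347 for each, the smallest possible). Without the 2 libraries farthest from the median S phase mean, r fell to 0.687 and 0.525 (exact permutation p = 0.0804 and 0.240), so with the whole list the relation rests on those libraries. With 1 library left out at a time, the lowest r was 0.795 for Dnmt1 and 0.707 for Uhrf1, and neither passed there (adjusted exact permutation p = 0.0664 and 0.0928). With Mcm2 to Mcm7, which encode the replicative helicase, as the list, the 7 remaining libraries still gave r = 0.907 for Dnmt1 and 0.817 for Uhrf1 (exact permutation p = 0.00417 and 0.0254). The level of Mcm3 ranged from 340 to 594 CPM in wild type.

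**Figure D2:**
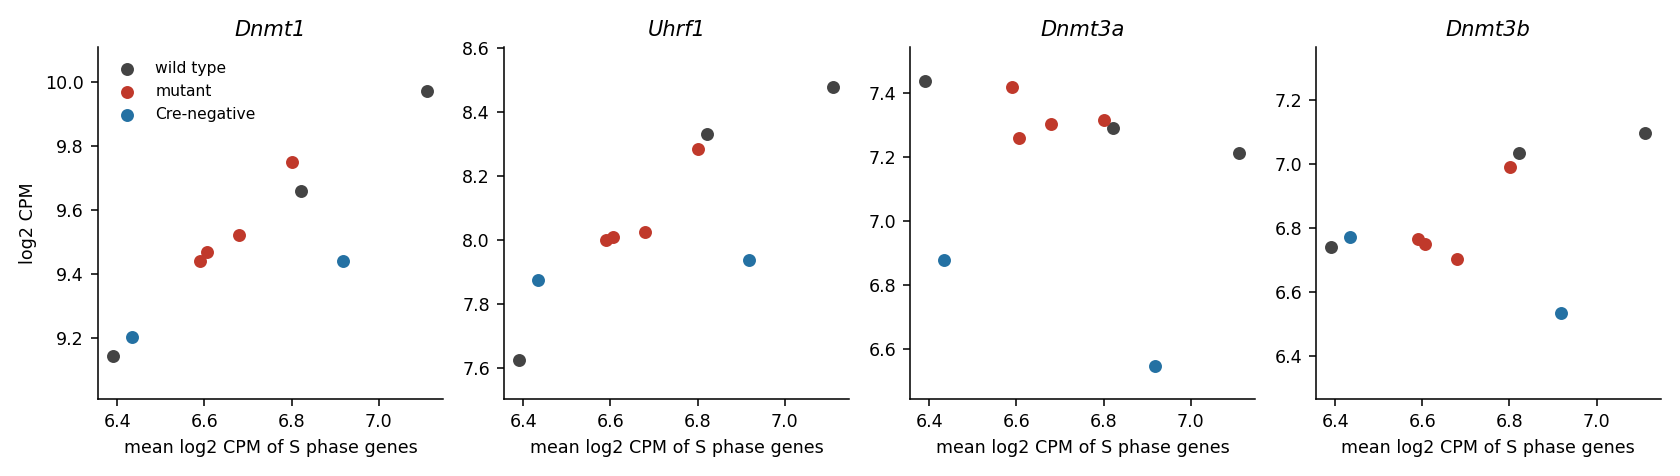
Log2 CPM of Dnmt1, Uhrf1, Dnmt3a and Dnmt3b (y axes of equal height) against the mean log2 CPM of 38 S phase genes (x axis), with 1 point per library. Dnmt1 and Uhrf1 rise with the S phase mean (r = 0.885 and 0.820), and the Cre-negative library at an S phase mean of 6.92 lies below the 3 libraries at 6.80, 6.82 and 7.11 in every panel.

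Dnmt3a and Dnmt3b did not show this relation over all 9 libraries. For Dnmt3b r was 0.435 and rho 0.300 (exact permutation p = 0.242 and 0.437), and 0.847 without cre_negative_819 (adjusted exact permutation p = 0.00628), the library with high erythroid markers. For Dnmt3a r was -0.25 and rho -0.5 (exact permutation p = 0.520 and 0.178), and r was -0.219 without the 2 libraries farthest from the median S phase mean (exact permutation p = 0.616). The Cre-negative libraries lie apart in Dnmt3a, and deviations from the group means gave r = -0.853, which did not pass (exact permutation p = 0.0625, adjusted p = 0.0833). In wild type the library with the lowest S phase mean had the highest Dnmt3a level, and the library with the highest S phase mean the lowest. The mutant libraries repeated this only in part. There mutant_829 had the lowest S phase mean and the highest Dnmt3a level. The lowest Dnmt3a level was in mutant_830, whereas mutant_824 had the highest S phase mean.

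Dnmt3a, the targeted gene (ENSMUSG00000020661, chr12:3806007-3914443, plus strand), stood at 148, 157 and 173 CPM in wild type and at 153, 158, 159 and 171 CPM in the mutant. The Cre-negative libraries held 118 CPM in cre_negative_780 and 93.5 CPM in cre_negative_819. The wild-type and mutant values ran through each other, and both Cre-negative values lay below all of them. The Cre-negative level was 66.2% of wild type in the edgeR fit, a log2 fold change of -0.59 (SE 0.13, 95% interval -0.87 to -0.32). Its unadjusted edgeR p was 7.22e-04, the 20th lowest of 18576 genes, and the adjusted p of 0.594 did not pass. Against the mutant the difference, as mutant minus Cre-negative, was 0.60 (SE 0.12, 95% interval 0.34 to 0.87), with the 7th lowest p and an edgeR adjusted p of 0.8005. The 2 comparisons share the Cre-negative libraries. For mutant minus wild type the value was 0.01, with a 95% interval from -0.22 to 0.24. DESeq2 on the same libraries called Dnmt3a in both comparisons with Cre-negative, with an adjusted p of 0.0179 and 0.0168.

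The 2 Cre-negative libraries did not carry this difference equally. With cre_negative_819 left out, the library with high erythroid and low LSK markers, the log2 fold change against wild type was -0.45 (edgeR adjusted p = 0.122), and with cre_negative_780 left out it was -0.80 (edgeR adjusted p = 0.0112). Each of these fits rests on a single Cre-negative library, which is assumed to vary like the other groups. In cre_negative_780 the erythroid markers summed to 307 CPM, inside the range of the other groups, while its neutrophil markers had the highest sum of the 9 libraries, at 1711 CPM. Mpo accounted for 1280 of these CPM. The part of either marker list in the Dnmt3a difference was not tested. In bulk RNA, fewer cells of a type and less RNA per cell cannot be told apart. Counts per gene also do not separate a mutant from a wild-type transcript, nor the long from the short Dnmt3a form, which start at different promoters.

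Dnmt3b (ENSMUSG00000027478, chr2:153649450-153687730, plus strand) stood at 107, 131 and 137 CPM in wild type and 104, 108, 109 and 127 CPM in the mutant, with 109 and 92.6 CPM in Cre-negative libraries. All 3 groups overlapped in pairs. Log2 fold changes were -0.16 for mutant (SE 0.12) and -0.31 for Cre-negative (SE 0.14) against wild type, and the edgeR adjusted p was 0.998 and 0.973. The interval for mutant against wild type, -0.42 to 0.10, leaves room for a loss of up to 0.42 on the log2 scale but for little gain.

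Dnmt3l (ENSMUSG00000000730, chr10:78041947-78063622, plus strand) was near the detection limit, with 18 to 21 reads per wild-type library and 17 to 24 per mutant library. The Cre-negative libraries held 7 and 11 reads. As CPM these were 0.361 to 0.397, 0.323 to 0.429, and 0.147 and 0.202, so the Cre-negative libraries lay below the other 7, as for Dnmt3a. The log2 fold change was -1.12 against wild type (SE 0.43, 95% interval -2.07 to -0.17), with an unadjusted edgeR p of 0.0254 and an adjusted p of 0.846. Between mutant and wild type it was -0.01, with an interval of -0.75 to 0.73. Aire, an antisense neighbour that shares 67 exon bases with Dnmt3l, was higher in cre_negative_780 (2.17 CPM) than in cre_negative_819 (0.513 CPM), and did not follow Dnmt3l.

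Across the family, 0 of 5 members passed at an adjusted p of 0.05 in edgeR in any of the 3 comparisons, as did 0 of 18576 genes (0%). DESeq2 passed 38, 56 and 27 genes in mutant against wild type, Cre-negative against wild type and mutant against Cre-negative, and limma-voom 13, 0 and 0, while 589, 972 and 978 genes had an unadjusted edgeR p under 0.05. At an unadjusted p under 0.05, 2 of 5 members (Dnmt3a and Dnmt3l) were lower in Cre-negative than in wild-type libraries, where 1.59% of all genes were lower and 5.23% differed either way. The same 2 members were higher in the mutant than in Cre-negative libraries, where 1.55% of genes were higher. Between mutant and wild type the count was 0 of 5, against 3.17% of genes. The libraries did not overlap for the same 2 members in Cre-negative against wild type, where 5.12% of genes had all Cre-negative libraries lower. In mutant against Cre-negative they did not overlap for 3 of 5 members, with Uhrf1 added, and 5.09% of genes had all mutant libraries higher. In Cre-negative against wild type all 5 members had negative fold changes, with a median of -0.31, while 46.8% of all genes were negative. In mutant against wild type 4 of 5 were negative, with a median of -0.08, and the median of all genes was -0.02.

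**Figure D3:**
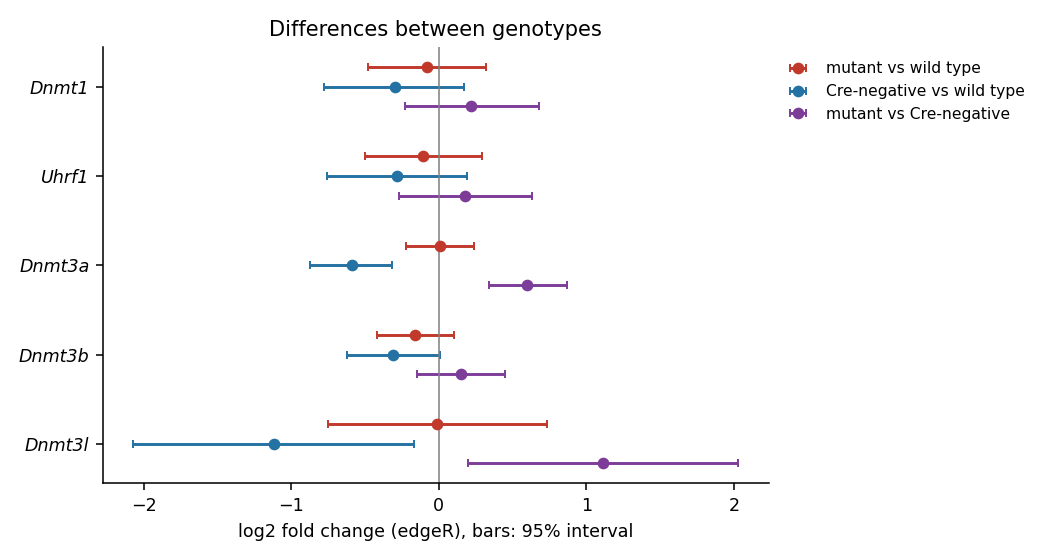
Log2 fold change of each member (x axis) in the 3 comparisons, with 95% intervals from edgeR fitted to all 9 libraries. The intervals of Dnmt3a and Dnmt3l against Cre-negative libraries exclude 0 before adjustment for multiple tests, and those for mutant against wild type include 0 in all 5 members.

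The balance of the de novo enzymes was compared as a ratio, which does not depend on library size. The Dnmt3a to Dnmt3b ratio per kilobase was 0.332, 0.366 and 0.497 among wild-type libraries and 0.384, 0.437, 0.465 and 0.482 among mutant libraries, and the Cre-negative libraries held 0.330 and 0.310. The Cre-negative ratios lay below all others, though only just below the lowest wild-type ratio. Their difference from the mutant was 0.46 on the log2 scale (mutant minus Cre-negative), with an exact two-sided permutation p = 0.0667, the smallest that 4 against 2 libraries allow, and an adjusted p of 0.600 over 9 tests. Against wild type the difference was -0.30 (exact permutation p = 0.200, adjusted p = 0.600, smallest possible 0.100). The mutant ratio exceeded wild type by 0.17 on the log2 scale (exact permutation p = 0.343). The Dnmt3a to Dnmt1 ratio spread more widely, from 0.0654 to 0.136 within wild type alone. Its adjusted exact permutation p and that of the Dnmt1 to Uhrf1 ratio was 0.600 or above in each comparison.

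**Figure D4:**
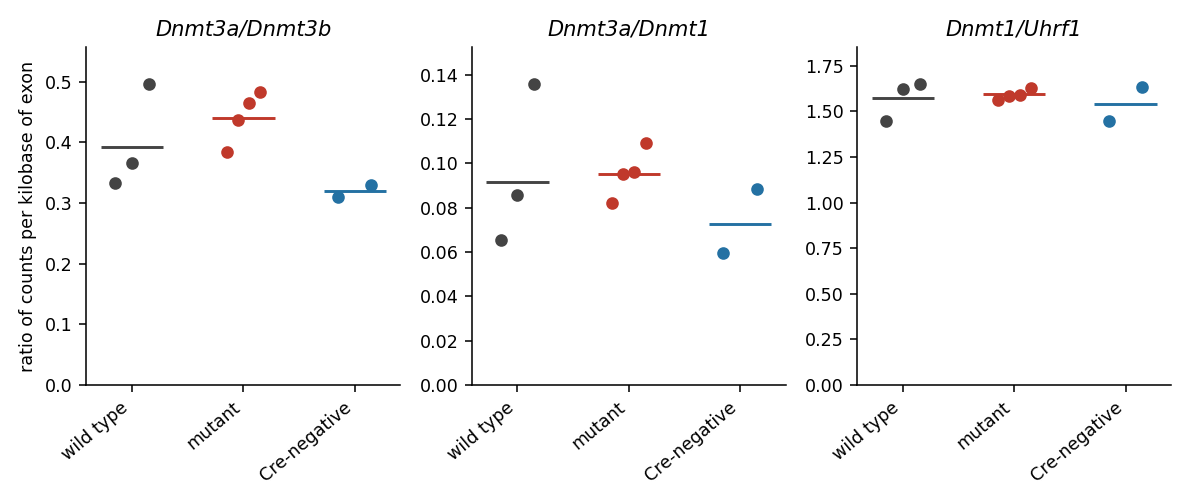
Ratios of 2 members per library, from counts per kilobase of exon (y axes from 0), with a line at the geometric mean of each group. The Dnmt3a to Dnmt3b ratio is lowest in the 2 Cre-negative libraries (0.310 and 0.330), and the Dnmt1 to Uhrf1 ratio stays between 1.45 and 1.65.

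Relatives outside the family list did not pass in any comparison either. Uhrf2, the paralog of Uhrf1, ranged from 166 to 209.7 CPM. Trdmt1, which methylates transfer RNA, ranged from 17.9 to 29.2 CPM, and both ends of that range were wild-type libraries. Dnmt3c, a rodent copy of Dnmt3b that acts in the male germ line, was at 1.36 CPM in cre_negative_819 and at 0 to 0.477 CPM elsewhere. Reads that fit both Dnmt3b and Dnmt3c may have been dropped as not unique, so both rows are uncertain. The antisense gene Dnmt3aos shares 133 exon bases (0.799%) with Dnmt3a and held 21 to 49 reads, against 5106 to 9695 for Dnmt3a.

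Partners of the family were measured as 4 lists. Among 17 maintenance partners, which bind Dnmt1 or Uhrf1 or open chromatin for them, 14 were negative in mutant against wild type (median -0.12) and 11 in Cre-negative against wild type (median -0.07), and 0 passed in edgeR in either. Hells, a chromatin remodeller needed for methylation of repeats, had 160.4, 218 and 311 CPM in the wild-type libraries, and its activator Cdca7 271, 381 and 469. Both thus repeated the order of Dnmt1 and Uhrf1 within wild type. Hdac1, a histone deacetylase, averaged 55.1 CPM in the mutant and 65.6 in wild type (log2 fold change -0.25, SE 0.10, edgeR adjusted p = 0.998). The highest mutant value, 56.7, lay below the lowest wild-type value, 62.6, a separation that 4.15% of all genes showed in that direction.

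Of 15 tested recruiters and regulators of the Dnmt3 enzymes, 13 were negative in mutant against wild type (median -0.17) and 5 in Cre-negative against wild type (median 0.03). Myc went the other way in the mutant, at 152 CPM against 129 (log2 fold change 0.24, SE 0.09), and Zfp445, a zinc finger protein that protects methylation at imprinted genes, averaged 101 CPM in the mutant and 120.4 in wild type (log2 fold change -0.26, SE 0.10). Nsd2, a histone H3 methyltransferase, averaged 308 and 356 CPM. The edgeR adjusted p of these genes was 0.998. Dppa3, a maternal factor that blocks Uhrf1, was close to 0 and was not tested.

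Among 10 methyl-CpG readers, proteins that bind methylated DNA, 6 were negative in the mutant (median -0.10). Zbtb33, which encodes Kaiso, had the lowest p there, with a mutant mean of 25.4 CPM (SD 1.71) against 37.5 CPM in wild type (SD 10.4). Its log2 fold change was -0.56 (SE 0.17), and the edgeR adjusted p was 0.998. Its Cre-negative level was 36.8 CPM, near wild type. Mbd2 was at 83.0 CPM or 145 CPM in the Cre-negative libraries and averaged 85.7 in wild type. In the methyl donor cycle, which makes S-adenosylmethionine, 13 of 17 tested genes were negative in the mutant (median -0.12) and 9 in Cre-negative libraries (median -0.03). Shmt1, a folate enzyme, stood at 90.6, 129.6 and 172 CPM in wild type and at 92.0 and 92.3 CPM in Cre-negative libraries. Mat1a and Bhmt, liver enzymes of the cycle, had no counts in any library and were not tested. For comparison, 36 of 38 S phase genes were negative in mutant against wild type (median -0.13) and 30 in Cre-negative against wild type (median -0.14), with 0 passing in edgeR, and 54.3% of all genes were negative in the first comparison. The wild-type libraries held both the lowest and the highest S phase mean.

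**Figure D5:**
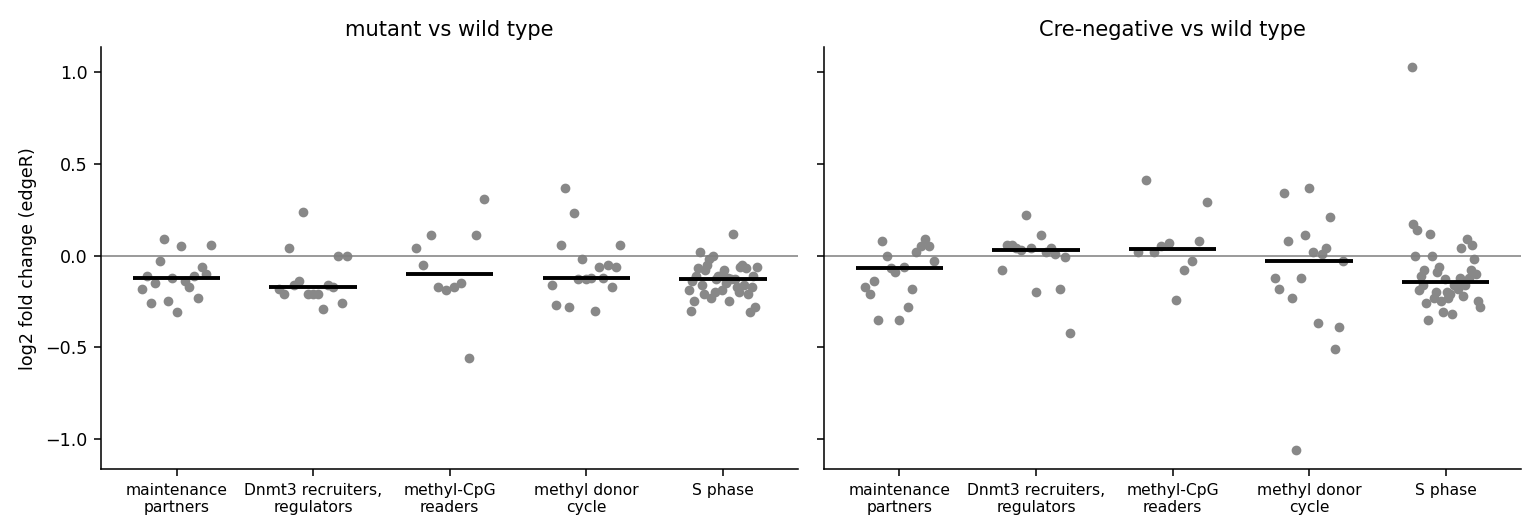
Log2 fold changes of the tested genes of 5 lists (1 point per gene, in alphabetical order within a list, and a black line at the list median) for mutant and Cre-negative against wild type. List medians lie between -0.17 and 0.03, and no gene passed the test across all genes.

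The genes whose levels over the 9 libraries were most like each member, by Pearson's r of log2 CPM among 13586 genes with a mean of at least 1 CPM, are given as a description, since they are the highest of many values. For Dnmt1 they were Pgk1, a glycolytic enzyme (r = 0.993), ENSMUSG00000052429, for which the annotation used gives no symbol (0.991), and Mcm3 (0.989), and Uhrf1 came 37th. For Uhrf1 they were the cyclophilin gene Ppil1 (0.988), the mitochondrial import gene Timm50 (0.978) and the thymidine kinase gene Tk1 (0.978), a gene of S phase, and Dnmt1 came 20th. For Dnmt3b they were Vav2 (0.959), Cars2 (0.952) and H2afy (0.930), which encodes a histone variant, macroH2A. For Dnmt3a they were Noxo1 (0.972), Olfm5 (0.956) and Dnajb5 (0.930), with Spearman's rho of 0.667 for the first pair and 0.5 for Dnajb5. For Dnmt3l, which was ranked against 13587 genes, they were Catsper2 (0.961), Dnajb5 (0.927) and Zfp72 (0.924).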

How the data were processed

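The authors deposited raw counts per Ensembl gene for 9 libraries of total RNA, from a stranded kit that depletes ribosomal RNA (per the labels' protocols). STAR, HTSeq 0.5.3p3, DESeq2 and the build mm10 (GRCm38) are named in the submitters' processing notes, while annotation and strand setting were not given in the sources used here. Without the strand setting, reads of overlapping antisense genes cannot be told apart. Left out were 5 rows without a gene name, with 40.5% to 47.3% of counted reads, and reads that were not unique made up 21.6% to 28.3%. A second deposited table of scaled counts was not used.

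Symbols, exon lengths and coordinates came from GENCODE M21 on GRCm38 (37693 of 39179 rows matched), and promoters from RefSeq on GRCm38.p6. Genes were kept with filterByExpr, scaled by TMM and tested with the quasi-likelihood test of edgeR 4.0.16 fitted to all 9 libraries (two-sided, Benjamini-Hochberg over 18576 genes). Standard errors are the log2 fold change over the square root of F. Ratios and correlations had exact permutation tests. The correlations between members were added after the data were seen. Libraries of 1 group differed well beyond sampling noise (chi-square over degrees of freedom at least 14.6), so each counted as 1 replicate. Simulated data were used to test the edgeR script. Under R 4.3.3, alternatives were run with DESeq2 1.42.0 and limma 3.58.1. The members and gene lists were chosen with earlier results of these data known. Named genes were the 5 members, their relatives and overlapping genes, up to 3 genes per list with the lowest p in each comparison, of which some are given, and the 3 genes most like each member. Values of Hells, Cdca7, Mcm3, Car1, Trdmt1 and Shmt1 were chosen for description after they were seen. Some results that turn on a single wild-type library are not reported here.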

Additional observations from a re-analysis of the deposited data

Results flagged for a closer look

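Among 11 values tested in the 4 mutant libraries, 1 had a library far from the other 3. Uhrf1 stood at 312 CPM in mutant_824, whereas the other mutant libraries held 256 to 260.3 CPM. By chance about 1 in 20 such groups would be set apart. The S phase mean of mutant_824 was also the highest of the 4 mutant libraries (6.80 against 6.59 to 6.68), and Dnmt1 was highest there too, at 861 CPM. Whether these values share a source was not tested.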

How the results depend on the processing

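Members mostly kept their direction and side of the threshold, in 221 of 237 refitted fold changes. As no member passed in the main fit, keeping its side meant not passing again. Some of the 237 left out a library outside the compared groups, so the count is a weak measure of stability. Ratios kept their direction in 57 of 63, and no p was computed for these ratio alternatives. Some of the 63 used plain counts and could only repeat the main value, because a fixed exon length cancels between groups. Counts of calls were not stable. With DESeq2, 38, 56 and 27 genes passed in mutant against wild type, Cre-negative against wild type and mutant against Cre-negative, and with limma-voom and sample weights 13 passed in the first. Leaving out each library gave 0 to 0, 0 to 650 and 0 to 1835 genes, with 650 and 1835 without cre_negative_780 and 62 and 9 without cre_negative_819. Dnmt3a passed in DESeq2 at -0.61 against wild type and 0.63 as mutant against Cre-negative, and ranged from -0.80 to -0.45 and from 0.48 to 0.83 with libraries left out, passing in both without cre_negative_780. In mutant against wild type, directions turned with libraries left out for Dnmt1 (-0.25 to 0.13), Uhrf1 (-0.299 to 0.0678), Dnmt3a (-0.0342 to 0.0983) and Dnmt3l (-0.0565 to 0.0744). Dnmt3l was 3e-05 in DESeq2 and 0.0045 with only the compared groups. Log2 ratios that turned were Dnmt3a to Dnmt1 in mutant against wild type (-0.18 to 0.34) and Dnmt1 to Uhrf1 in mutant against wild type (-0.0409 to 0.0545), Cre-negative against wild type (-0.118 to 0.0568) and mutant against Cre-negative (-0.0383 to 0.137). The r with S phase genes ranged, with libraries left out (an alternative chosen after seeing the data), from 0.795 to 0.985 for Dnmt1, 0.707 to 0.955 for Uhrf1, -0.517 to 0.066 for Dnmt3a and 0.099 to 0.847 for Dnmt3b. Shares follow the length scale. From plain counts the mutant share of Dnmt1 was 73.3%, those of Dnmt3a 15.4%, 15.8% and 12.5% in wild type, mutant and Cre-negative, and those of Dnmt3b 11.7%, 10.96% and 11.96%. With the longest coding transcript, chosen after seeing the data, they were 75.0% for Dnmt1 in the mutant, 9.56%, 9.79% and 7.64% for Dnmt3a, and 15.2% for Dnmt3b in the mutant. Apart from changed construction, the cause was not tested. Dnmt3l had no value under the filter of 1 CPM in 4 libraries. No paired analysis was possible because no replicate number is shared between groups. At 7 to 24 reads per library, depth limits Dnmt3l.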
